A study of Mus musculus with 21 samples.

Results

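Transcripts that mark excitatory neurons of the cerebral cortex were followed through 21 RNA sequencing libraries of mouse striatum. The 8 genes are Slc17a7, Slc30a3, Neurod6, Neurod2, Tbr1, Emx1, Cplx3 and Nrn1, found by symbol among the 41128 gene symbols of the deposited table, and all 8 were in it. They were chosen from their measured values in these same libraries, and the contrast used for the choice is not given in the sources used here. Every level and difference of theirs below is therefore a description, with no test between groups. All mice were wild type, and per the labels an adeno-associated virus (AAV, a carrier of a gene that does not replicate by itself) was given into the striatum, with the tissue taken 3 weeks later. The virus carried Cas9, the genome editing nuclease, or GCas9, which the labels do not spell out and which the study is known for as a Cas9 fused to part of Geminin to shorten its life, or GFP, a fluorescent protein used as a control cargo. The libraries fall into 2 sets. In set A there were 3 of WT, 3 of Cas9 and 3 of GCas9, and in set B 4 of GFP, 4 of Cas9 and 4 of GCas9. The WT libraries stand under the same injection protocol and the labels do not say whether those mice received a virus, which the comparisons with WT carry with them. For the age, the labels state 3 weeks among the sample traits but 3 months under the growth conditions. Neither the promoter that drives Cas9 nor any pooling of animals is stated, and nothing says that the libraries of a group came from separate animals, so the errors below measure the spread between libraries, part of which may be technical.

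The striatum receives dense glutamatergic input from the cortex, whose pyramidal neurons send axons into it while their cell bodies, and most of their RNA, stay in the cortex. The striatum's own principal cells are GABAergic spiny neurons that arise from the ventral telencephalon, whereas cortical excitatory neurons arise from the dorsal telencephalon under transcription factors such as Emx1, Tbr1, Neurod2 and Neurod6. Cortical pyramidal neurons load glutamate into vesicles with Slc17a7 (VGLUT1) and zinc with Slc30a3 (ZnT3), and some of them express the complexin Cplx3 and the surface protein Nrn1 (neuritin). In bulk tissue, fewer cells of a type and less RNA per cell cannot be told apart.

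Levels are the authors' normalized read counts, whose library totals came to 23.0 to 24.2 M (mega) for set A but 8.21 to 8.69 M for set B, so that levels are read within a set only. Gene reads per library numbered 20.3 to 28.0 M for set A but 6.09 to 11.1 M for set B, where each of the Cas9 libraries (6.09 to 7.69 M) was shallower than any GFP (7.89 to 9.75 M) or GCas9 library (7.81 to 11.1 M). The labelled tissue was checked against its defining markers. All 18 genes of a list of spiny neuron markers were detected, with a summed level of 339187 to 434711 (set A) and of 160726 to 199951 (set B). Per kilobase of exon, Ppp1r1b (DARPP-32, a phosphatase inhibitor of spiny neurons) averaged 21456 in set A and 8508 in set B, against 75.7 and 28.6 for Slc17a7, the most abundant of the 8 genes. No replicate pair agreed within sampling noise, so no library was counted more than once. Choroid plexus markers stood apart in Cas9 replicate 1 of each set, with a summed level of 297595 in set A (WT 803 to 1070) and 11056 in set B (GFP 211 to 361). In set A they were also above WT in GCas9 replicates 1 (11753), 2 (1278) and 3 (3572) and in Cas9 replicate 3 (2572). In set B they were also above GFP in Cas9 replicate 2 (733) and in GCas9 replicates 2 (558), 3 (507) and 4 (373).

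Sequences just upstream of the starts annotated in RefSeq are given for 4 of the genes, 3 that rose and fell together between the set A libraries (Slc17a7, Neurod2 and Tbr1) and 1 that moved apart from them (Cplx3), as shown further on. Each run is the 250 bases before the start in RefSeq (GRCm38.p6), 5′ to 3′ on the gene's own strand, in lower case. Capitals mark exact matches to any of 4 short motifs searched on both strands: the E-box forms CAGATG and CAGCTG, bound by factors of the Neurod kind, the T-box element AGGTGTGA, and TAATTA, a core that homeobox factors bind.
Slc17a7, chr7:45163671-45163920, plus strand: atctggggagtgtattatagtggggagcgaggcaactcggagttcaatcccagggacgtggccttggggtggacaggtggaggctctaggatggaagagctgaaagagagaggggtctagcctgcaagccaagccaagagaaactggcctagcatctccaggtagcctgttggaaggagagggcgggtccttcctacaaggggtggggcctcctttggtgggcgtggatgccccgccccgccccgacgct
Neurod2, chr11:98329646-98329895, minus strand: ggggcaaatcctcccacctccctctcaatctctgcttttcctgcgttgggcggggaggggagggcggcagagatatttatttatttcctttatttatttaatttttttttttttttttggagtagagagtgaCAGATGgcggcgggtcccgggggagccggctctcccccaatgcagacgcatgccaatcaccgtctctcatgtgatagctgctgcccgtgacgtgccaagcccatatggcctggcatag
Tbr1, chr2:61804203-61804452, plus strand: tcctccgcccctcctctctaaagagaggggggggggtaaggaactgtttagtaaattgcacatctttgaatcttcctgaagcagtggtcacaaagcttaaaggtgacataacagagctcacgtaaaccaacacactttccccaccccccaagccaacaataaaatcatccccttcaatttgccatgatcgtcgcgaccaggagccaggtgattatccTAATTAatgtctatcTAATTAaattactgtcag
Cplx3, chr9:57606282-57606531, minus strand: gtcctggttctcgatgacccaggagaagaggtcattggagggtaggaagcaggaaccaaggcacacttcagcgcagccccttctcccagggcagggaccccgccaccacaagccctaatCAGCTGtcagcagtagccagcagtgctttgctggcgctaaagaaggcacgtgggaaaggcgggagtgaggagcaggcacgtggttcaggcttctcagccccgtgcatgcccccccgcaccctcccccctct
The Neurod2 window held CAGATG 118 to 113 bases before the start, the Tbr1 window held TAATTA at 33 to 28 and again at 18 to 13 bases, and the Cplx3 window held CAGCTG at 131 to 126 bases. The Slc17a7 window held none of the 4, which says only that these letters are not in it. Of all 32851 windows of the same length, 14.4% held CAGATG, 13.0% CAGCTG, 1.12% AGGTGTGA and 4.84% TAATTA. RefSeq windows were matched for 7 of the 8 genes, 8 windows in all because Slc30a3 has 2, and each motif was found in 1 of the 8. The 3 genes that moved together shared no motif of the 4, and the matches are descriptions of letters, not binding sites.

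On GRCm38 with the GENCODE M21 annotation, all 8 are protein-coding genes, spread over 7 chromosomes. Slc17a7 (ENSMUSG00000070570) lies at chr7:45163949-45176142, Slc30a3 (ENSMUSG00000029151) lies at chr5:31086106-31108237, Neurod6 (ENSMUSG00000037984) lies at chr6:55677822-55681263 and Neurod2 (ENSMUSG00000038255) lies at chr11:98325415-98329648. Tbr1 (ENSMUSG00000035033) lies at chr2:61802930-61814114, Emx1 (ENSMUSG00000033726) lies at chr6:85187438-85204462, Cplx3 (ENSMUSG00000039714) lies at chr9:57599992-57606281 and Nrn1 (ENSMUSG00000039114) lies at chr13:36725361-36735131. Nrn1 shares 501 exon bases with Fars2 on the opposite strand, and the strand setting of the counting is not given in the sources used here, so reads in that stretch may belong to either gene. Slc30a3 overlaps Dnajc5g without shared exon bases. The Tbr1 window printed above (chr2:61804203-61804452) lies inside the gene as placed here, because its RefSeq start is further along than the GENCODE one.

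Per kilobase of exon, the order of mean levels in set A was Slc17a7 (75.7), Nrn1 (23.8), Cplx3 (19.3), Neurod6 (13.7), Neurod2 (12.5), Slc30a3 (11.8), Tbr1 (8.64) and Emx1 (3.72). In set B Slc17a7 again led at 28.6, followed by Nrn1 at 6.05 and by Neurod6 and Cplx3 at 5.23 each, and Emx1 was again lowest at 1.40. The mean of Slc17a7 stood well above the next, but the ranges over libraries of all neighbours in each order overlapped. The highest library exceeded the lowest by 8.10-fold (Nrn1) to 18.8-fold (Neurod2) within set A, and by 13.9-fold (Cplx3) to 48.5-fold (Slc30a3) in set B among the 6 genes detected in every library.

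**Figure D1:**
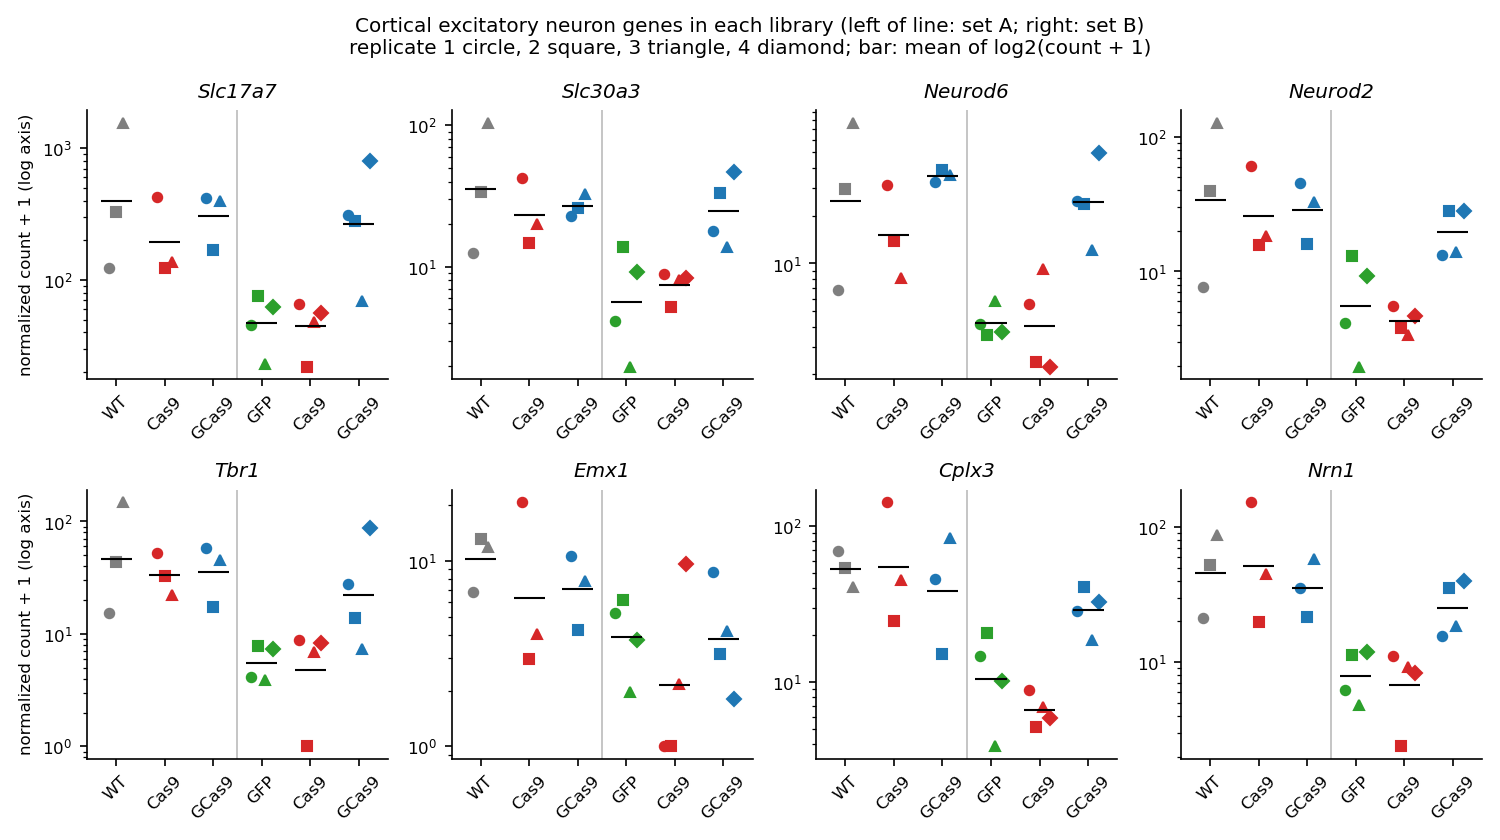
Normalized count + 1 (log axis) of each of the 8 genes in every library of the 6 groups, with set A left and set B right of the grey line, symbols for replicate numbers and bars for the mean of log2(count + 1). In set B the GCas9 libraries lie high for 7 genes, as for Slc17a7 at 312, 280.0, 68.2 and 804. In set A the WT libraries span most of the range for Slc17a7, Slc30a3, Neurod6, Neurod2 and Tbr1, while Cas9 replicate 1 is highest for Emx1, Cplx3 and Nrn1.

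Slc17a7 carries glutamate into the vesicles of cortical terminals. In set B it was at 44.2, 74.4, 21.9 and 61.0 in the GFP libraries, at 64.4, 20.8, 47.2 and 55.3 in Cas9 and at 312, 280.0, 68.2 and 804 in GCas9 (replicates 1 to 4), which are means of 50.4 ± 22.6, 46.9 ± 18.7 and 366 ± 311 (SD, n = 4 each). GCas9 replicate 3, the lowest of its group, lay above every Cas9 library but below GFP replicate 2, so GCas9 did not overlap Cas9 and did overlap GFP. In set A it was at 122, 328 and 1561 in WT, 423, 121 and 137 in Cas9 and 418, 169 and 394 in GCas9 (replicates 1 to 3). All 3 groups overlapped there, and WT replicates 1 and 3 differed by 12.8-fold.

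Slc30a3, which fills the same vesicles with zinc, had 3.16, 12.8, 0.953 and 8.19 in GFP, 7.90, 4.17, 7.08 and 7.37 in Cas9 and 16.9, 32.3, 12.8 and 46.2 in GCas9 of set B. The lowest GCas9 library lay above the highest GFP library by less than 1 read is worth (12.84 against 12.83), and clearly above the highest Cas9 library. The set A values were 11.6, 32.8 and 104 in WT, 41.6, 13.8 and 19.2 in Cas9 and 22.1, 24.9 and 31.7 in GCas9, with WT replicate 3 above and WT replicate 1 below all others.

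Neurod6, a basic helix-loop-helix factor of differentiating and mature pyramidal neurons, was at 3.16, 2.57, 4.77 and 2.73 in GFP, 4.52, 1.39, 8.26 and 1.23 in Cas9 and 23.8, 22.6, 11.2 and 48.6 in GCas9 of set B. All 4 GCas9 libraries lay above all others of the set, on 14, 13 and 127 reads in the 3 groups. In set A it was at 5.77, 28.4 and 76.1 in WT, 30.2, 12.8 and 7.08 in Cas9 and 31.6, 37.8 and 35.1 in GCas9, the 3 GCas9 values lying close together and above all Cas9 values. Its relative Neurod2, which drives pyramidal neuron differentiation and synapse formation, was at 3.16, 12.0, 0.953 and 8.19 in GFP, 4.52, 2.78, 2.36 and 3.68 in Cas9 and 12.3, 26.9, 12.8 and 27.1 in GCas9 of set B. GCas9 again did not overlap either group, though it cleared the highest GFP library by less than 1 read is worth (12.3 against 12.0). In set A Neurod2 was at 6.74, 38.8 and 127 in WT, 59.3, 14.8 and 17.2 in Cas9 and 44.1, 15.1 and 31.7 in GCas9, with all groups overlapping.

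Tbr1, the T-box factor that specifies deep-layer cortical neurons, was at 3.16, 6.84, 2.86 and 6.37 in GFP, 7.90, 0, 5.90 and 7.37 in Cas9 and 26.9, 12.9, 6.42 and 86.0 in GCas9 of set B. Here GCas9 replicate 3 fell within the other groups, so no pair of groups was apart. Cas9 replicate 2 had 0 reads, which allows up to 3 reads by counting error alone. In set A Tbr1 was at 14.4, 42.2 and 148 in WT, 51.0, 31.6 and 21.2 in Cas9 and 57.5, 16.2 and 44.1 in GCas9. Emx1, the homeobox factor of dorsal telencephalic progenitors and their excitatory progeny, was the rarest of the 8 and differed in pattern. In set B it was at 4.21, 5.13, 0.953 and 2.73 in GFP, 0, 0, 1.18 and 8.60 in Cas9 and 7.68, 2.15, 3.21 and 0.796 in GCas9, on 14, 8 and 17 reads, and GCas9 replicate 4, the highest library for Slc17a7, had 1 read of it. Its set A values were 5.77, 12.1 and 10.9 in WT, 19.8, 1.97 and 3.03 in Cas9 and 9.59, 3.24 and 6.79 in GCas9. At this depth no difference of Emx1 between groups was detectable in either set.

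Cplx3 binds the SNARE complex that drives vesicle fusion and is found in deep cortical neurons and in the retina. In set B it was at 13.7, 19.7, 2.86 and 9.10 in GFP, 7.90, 4.17, 5.90 and 4.91 in Cas9 and 27.6, 39.8, 17.7 and 31.9 in GCas9, with GCas9 above all Cas9 libraries and overlapping GFP by replicate 3. In set A it was at 68.3, 52.6 and 39.5 in WT, 142, 23.7 and 44.5 in Cas9 and 45.1, 14.0 and 82.6 in GCas9. The WT libraries ran in the reverse order of Slc17a7, with replicate 3 the lowest. Nrn1 is a membrane-anchored protein that neuronal activity induces and that promotes neurite growth. It was at 5.26, 10.3, 3.81 and 10.9 in GFP, 10.2, 1.39, 8.26 and 7.37 in Cas9 and 14.6, 34.5, 17.7 and 39.0 in GCas9 of set B, where all GCas9 libraries lay above all others. In set A it was at 20.2, 50.9 and 86.0 in WT, 152, 18.7 and 43.5 in Cas9 and 34.5, 20.5 and 56.5 in GCas9, Cas9 replicate 1 being the highest for Nrn1, Cplx3 and Emx1.

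The comparison of GCas9 with Cas9 in set B asks how striatum given the short-lived nuclease differed from striatum given the unmodified one. All 8 genes were higher in GCas9 by the mean of log2(normalized count + 1), and 6 did not overlap (all but Tbr1 and Emx1), where 1.23% of the 15428 genes tested were higher in GCas9 with no overlap. The differences were 2.59 ± 0.55 for Neurod6, 2.58 ± 0.60 for Slc17a7, 2.23 ± 0.80 for Tbr1 and 2.14 ± 0.47 for Cplx3 in log2 units (± SE), and 1.91 ± 0.53 for Nrn1 and 1.74 ± 0.58 for Slc30a3. The 6 genes named, those with a mean of at least 10 in the set, held ranks 1, 2, 4, 5, 6 and 7 among the 15428 log2 differences. Neurod2 (2.19 ± 0.56) and Emx1 (0.83 ± 0.70) had means below 10 and were fitted without that filter. Neurod2, 1 of the 6 without overlap, is thus not among the 15428 genes tested. Neurod6, Tbr1, Slc30a3 and Nrn1 had means below 10 in both GFP and Cas9 and passed the filter through GCas9 alone. Cplx3 had a mean of 11.3 in GFP but 5.72 in Cas9. The median of the 8 differences was 2.17, against 0.00 over all genes tested. Because the genes may have been chosen on this contrast, nothing is read from these counts and ranks.

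Against GFP in set B, 7 genes were higher in GCas9 and 4 did not overlap (Slc30a3, Neurod6, Neurod2 and Nrn1), where 2.5% of genes were higher with no overlap. Neurod2, below the filter, is not among the genes that this share counts. Slc30a3, Neurod6 and Nrn1 passed the filter through GCas9 alone. Slc30a3 and Neurod2 cleared the highest GFP library by less than 1 read is worth. The genes may have been chosen on these libraries, so nothing is read from these counts. The differences were 2.53 ± 0.55 for Neurod6, 2.50 ± 0.60 for Slc17a7, 2.14 ± 0.58 for Slc30a3, 2.02 ± 0.80 for Tbr1 and 1.80 ± 0.56 for Neurod2. Nrn1 differed by 1.67 ± 0.53, Cplx3 by 1.48 ± 0.47 and Emx1 by -0.04 ± 0.70, and the median of the 8 was 1.91. Both comparisons use the same 4 GCas9 libraries. Without GCas9 replicate 4, the highest library for 6 of the 8 genes, the Slc17a7 difference was 1.96 from GFP and 2.04 from Cas9, and without replicate 3, the lowest for Slc17a7, it was 3.14 and 3.22. Cas9 and GFP lay close to each other, with 7 genes lower and 1 higher in Cas9 (Neurod6 and Tbr1 turned positive with quantile normalization, edgeR and DESeq2), differences from -0.87 (Emx1) to 0.40 (Slc30a3), a median of -0.23 and 0 genes without overlap, where 4.68% of genes did not overlap in either direction. Slc17a7 differed by -0.08 ± 0.60 between Cas9 and GFP.

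**Figure D2:**
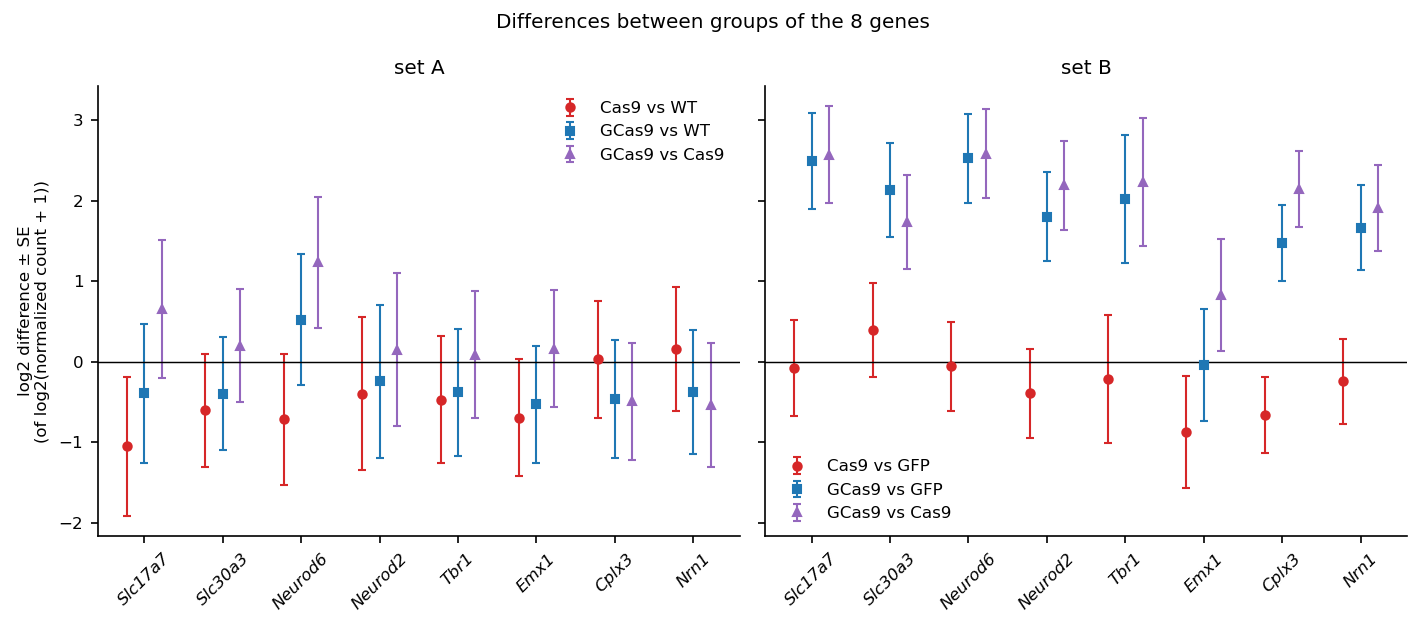
Differences of log2(normalized count + 1) between groups for each of the 8 genes, with standard errors as bars, in the 3 comparisons of set A (left) and of set B (right). In set B both GCas9 comparisons lie between 1.48 and 2.59 for 7 genes, Emx1 being the exception, while in set A all values lie between -1.05 and 1.24.

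In set A the differences were smaller and of mixed sign. For GCas9 minus Cas9 the differences ran from -0.54 ± 0.77 for Nrn1 and -0.49 ± 0.73 for Cplx3 to 0.66 ± 0.86 for Slc17a7 and 1.24 ± 0.81 for Neurod6, 6 being positive (Neurod2 turned to -0.01 with edgeR and with DESeq2) and the median 0.16. Neurod6 was the 1 gene of the 8 higher in GCas9 with no overlap, where 4.4% of genes were. For Cas9 minus WT 6 were lower and 2, Cplx3 and Nrn1, higher (lower with quantile normalization), with a median of -0.53, from -1.05 ± 0.86 for Slc17a7 to 0.16 ± 0.77 for Nrn1, and for GCas9 minus WT 7 were lower and Neurod6 (0.52 ± 0.81, but -0.08 with edgeR and DESeq2) higher (median -0.38). In neither comparison with WT was a gene of the 8 free of overlap, where 19.6% (Cas9) and 16.2% (GCas9) of the 15924 genes tested were, in either direction. Single libraries moved these differences. For Slc17a7, Slc30a3, Neurod6, Neurod2 and Tbr1 in both comparisons, and for Nrn1 in GCas9 minus WT, the lowest and highest values came from leaving out WT replicate 1 or 3. For Emx1 and Cplx3 in both, and for Nrn1 in Cas9 minus WT (-0.63 without Cas9 replicate 1, 0.85 without replicate 2), they came from leaving out a Cas9 or GCas9 library. Without WT replicate 3, Slc17a7 differed by -0.06 between Cas9 and WT, and by 0.59 between GCas9 and WT against -0.39 ± 0.86 with it. Without WT replicate 1 the same differences were -1.90 and -1.24. Cas9 replicate 1 was high for all 8 genes within its group and was also the library with the high choroid plexus markers, and without it GCas9 minus Cas9 was 1.23 for Slc17a7 and 0.21 and 0.25 for Cplx3 and Nrn1. Without GCas9 replicate 1, the next highest in those markers, it was 0.43, -0.62 and -0.54. The part of the choroid plexus content in these levels was not tested.

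As background for the lists below, over all genes limma (adjusted p under 0.05) called 0.00628% (1 gene) in Cas9 against WT, 0.00628% (1 gene) in GCas9 against WT, and 0% in GCas9 against Cas9 of set A and in each of the 3 comparisons of set B. At an unadjusted p under 0.05, limma had 1882, 1078 and 868 genes in the 3 comparisons of set A, and 963 (Cas9 against GFP), 999 (GCas9 against GFP) and 592 (GCas9 against Cas9) in set B. On the recovered reads edgeR called 0, 1 and 0 genes in set A and 0 in each comparison of set B, and DESeq2 called 116, 218 and 4 in set A and 14, 41 and 0 in set B. With a replicate block limma called 2 genes in GCas9 against WT. The 8 genes were chosen from these values and their own calls are not used.

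The GCas9 minus Cas9 difference was larger in set B than in set A for all 8 genes, by 1.92 ± 1.10 for Slc17a7, 2.64 ± 0.86 for Cplx3 and 2.45 ± 0.93 for Nrn1 (log2 units, SE), and by 0.66 (Emx1) to 2.14 (Tbr1) for the others. The set B part of this difference may have served to choose the genes, so nothing is read from its size. In the fit of this difference limma called 0% of 16094 genes (698 had an unadjusted p under 0.05), and edgeR and DESeq2 called 0. The sets differ in depth, in the control virus and in their normalization, which cannot be told apart from a difference in response.

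Libraries of 1 group differed far more for these genes than for most. The within-group SD of log2(normalized count + 1) was 1.28 for Slc17a7 in set A, where counting error at its mean of 410 reads would give 0.07, and 1.03 in set B, where it would give 0.11. The median over all genes tested was 0.14 in set A and 0.20 in set B, and 2.67% and 2.20% of genes had a larger SD than Slc17a7. Among genes within 1.5-fold of its level, 1.21% in set A and 1.29% in set B had a larger SD. The other 7 genes had SDs of 1.00 (Emx1, Slc30a3) to 1.39 (Neurod2) in set A, and of 0.69 (Cplx3) to 1.28 (Tbr1) in set B, where their counting error, 0.35 to 0.80, took a larger part. Among genes of like level, 25.6% had a larger SD than Cplx3 in set B and 5.55% a larger one than Tbr1.

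**Figure D3:**
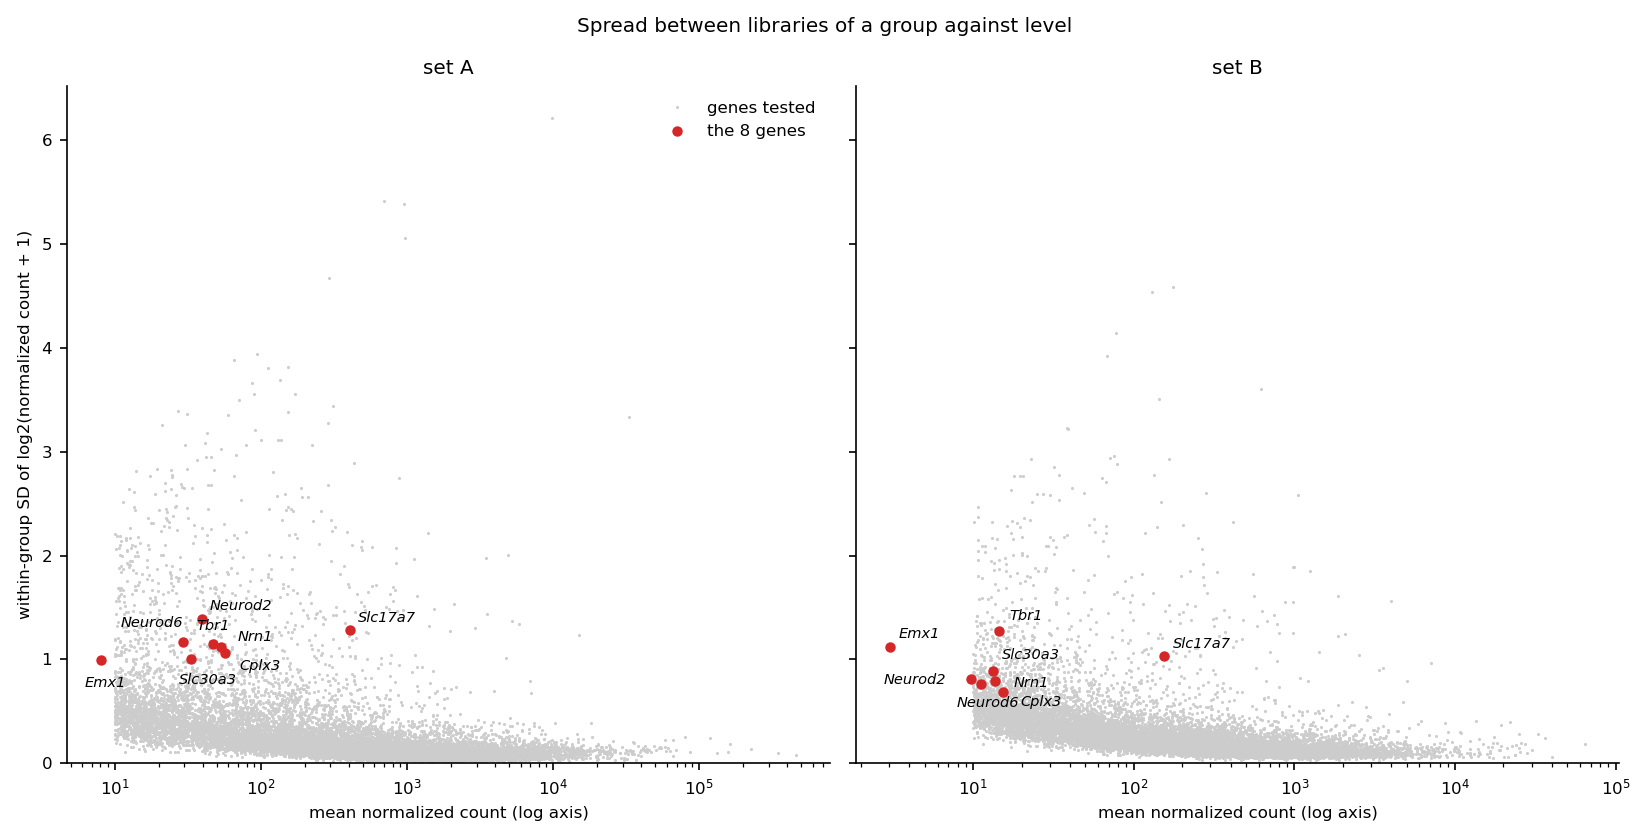
Within-group SD of log2(normalized count + 1) against the mean normalized count (log axis) for all genes tested (grey) and the 8 genes (red), in set A (left) and set B (right). Slc17a7 lies at an SD of 1.28 and 1.03, well above most genes of its level, and the other 7 lie among the more variable of the low genes.

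Within groups the 8 genes moved together in set A. Over the 9 libraries, with each group's mean removed, Pearson r between pairs had a median of 0.79 and was above 0 in 28 of 28 pairs, from 0.04 (Neurod6 and Cplx3) to 0.98 (Slc17a7 and Neurod2). Slc17a7 with Tbr1 gave 0.96 and Slc30a3 with Neurod6 0.93. The number of Slc17a7 reads per Tbr1 read stayed between 3.84 and 10.5 in all 9 libraries while Slc17a7 itself spanned 12.9-fold. These correlations share library, scaling and group means, and are descriptions over 9 libraries.

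Cplx3 stood apart in set A. Its r with the mean of the other 7 was 0.38 (Spearman rho 0.32), against 0.78 (Emx1) to 0.96 (Slc17a7) for the others, and it paired best with Emx1 (0.76) and Nrn1 (0.67). The number of Slc17a7 reads per Cplx3 read ran from 1.79 in WT replicate 1 to 39.5 in WT replicate 3. In set B, over 12 libraries, the median r was 0.55 and 26 of 28 pairs were above 0, from -0.43 (Neurod6 and Emx1) to 0.95 (Slc30a3 and Neurod2). There Cplx3 went with the rest (r of 0.69 with the mean of the other 7), while Neurod6 (0.27) and Emx1 (0.07) did not. That the genes standing apart were not the same in both sets was not tested, and the low counts of set B limit every r there.

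**Figure D4:**
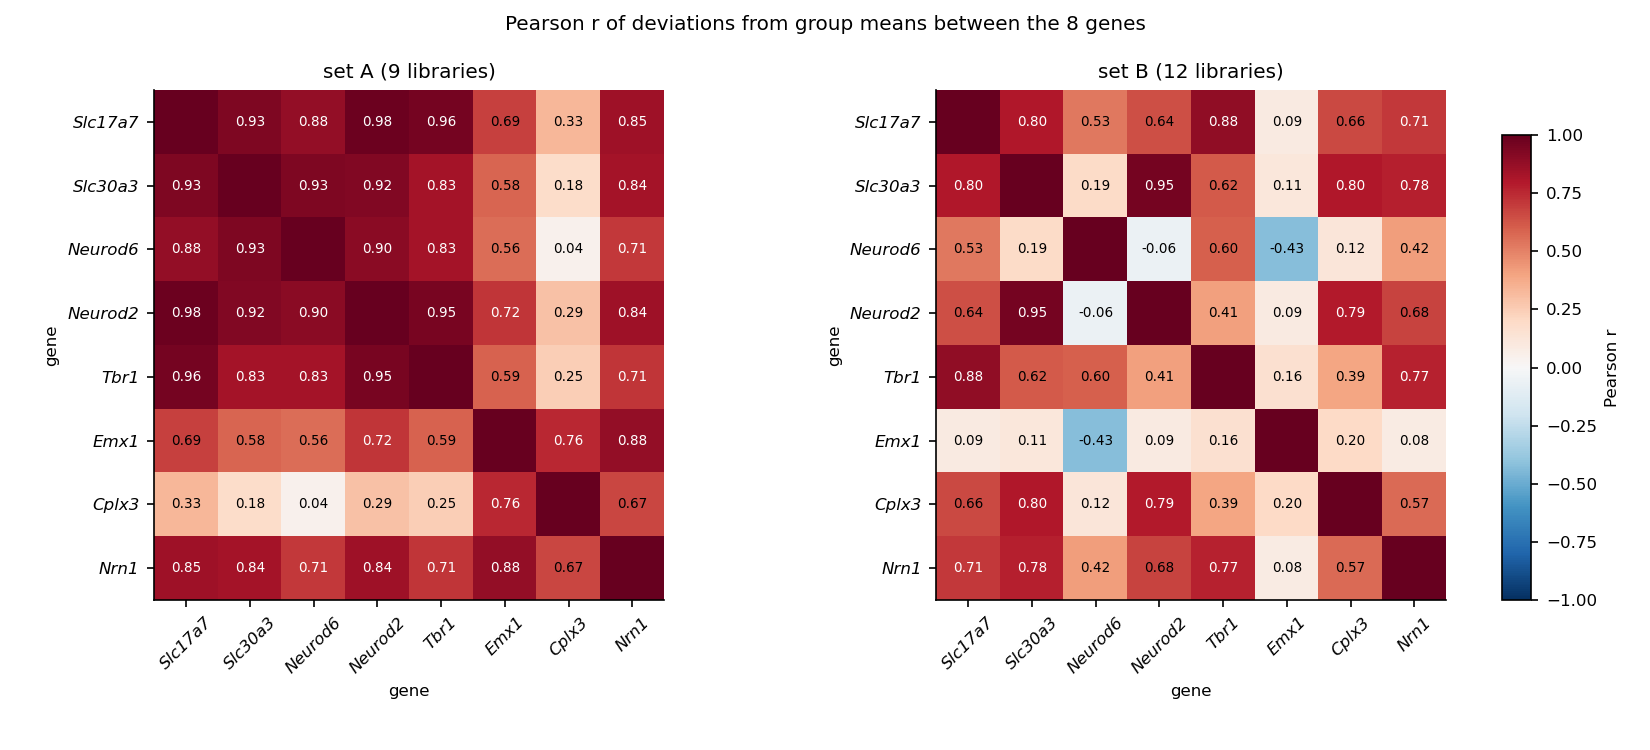
Pearson r between each pair of the 8 genes over deviations from group means, in the 9 libraries of set A (left) and the 12 of set B (right), from -1 (blue) to 1 (red). In set A the row of Cplx3 is pale, down to 0.04, and in set B the rows of Emx1 and Neurod6 are pale or blue, down to -0.43.

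Other genes used as markers of cortical excitatory neurons or of cortical layers mostly differed little. Of a list of 28, 27 were tested in set A and 26 in set B, and limma called 0 in each comparison. The list's median difference was 0.07 for GCas9 minus GFP and 0.06 for GCas9 minus Cas9 in set B (16 higher and 10 lower in each), and -0.09, -0.11 and -0.05 for Cas9 minus WT, GCas9 minus WT and GCas9 minus Cas9 in set A, against 0.00, 0.00 and 0.01 over all genes tested. The summed level of the list was 28563 to 29999 in WT of set A and 10322 to 11949 in GCas9 of set B. Its abundant members were far above the 8 genes, Syt6 averaging 912 per kilobase of exon in set A.

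By subgroup, the 2 of highest mean among general excitatory markers were Sv2b, a vesicle protein, and Mef2c, an activity-regulated transcription factor. In GCas9 minus Cas9 of set B they differed by -0.05 ± 0.10 and -0.08 ± 0.09. Of the upper-layer genes, Lamp5 differed by 0.08 ± 0.10 and Cux1, a homeobox factor, by 0.27 ± 0.08, and of the layer 4 genes Whrn by 0.02 ± 0.16 and Rorb by 0.10 ± 0.13. The layer 5 genes Trib2 and Etv1 differed by -0.03 ± 0.09 and -0.20 ± 0.13, and the layer 6 genes Syt6 and Hs3st4 by 0.04 ± 0.09 and 0.13 ± 0.11. None of these differences passed (limma adjusted p of 0.99 or more for all 10).

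Most genes of that list varied less between libraries than the 8 did. The within-group SD of its members had a median of 0.18 in set A and 0.23 in set B, against the 1.00 or more and 0.69 or more of the 8 genes. In set B the r with the mean deviation of the 8 genes reached 0.7 for 1 of the 26 genes of the list tested there, against 0.940% of all genes tested. It was Cux2 (r of 0.74), an upper-layer homeobox gene that was at 34.7 to 85.2 over the 12 libraries, and it is named for this r, after its values were seen.

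**Figure D5:**
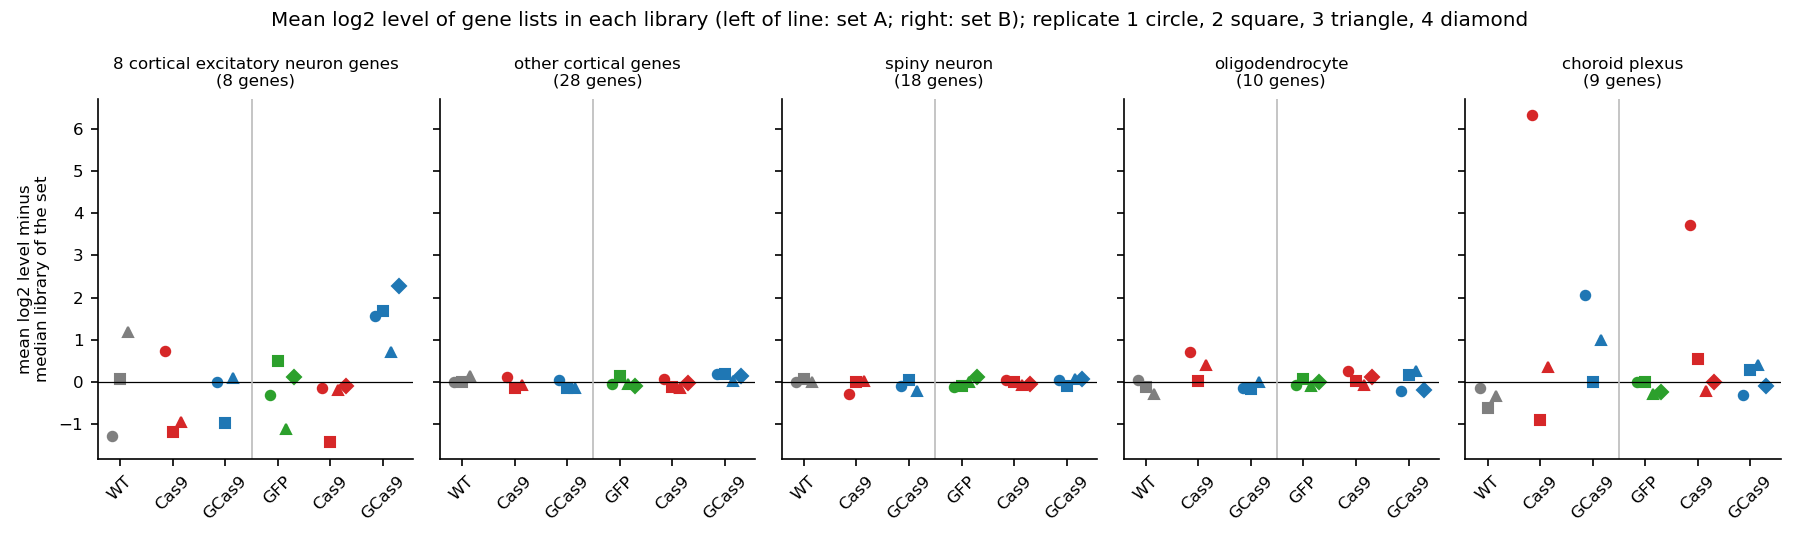
Mean log2(normalized count + 1) of 5 gene lists in each library, as the difference from the median library of its set, with set A left and set B right of the grey line. The list means of the 8 genes spread over more than 2 log2 units, those of other cortical, spiny neuron and oligodendrocyte genes stay nearer to 0, and choroid plexus genes are highest in Cas9 replicate 1 of each set and also raised in GCas9 replicates 1 and 3 of set A.

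Relatives of the 8 genes within their families were measured in the same tissue. The vesicular glutamate transporter Slc17a8 (VGLUT3, of cholinergic interneurons) averaged 107 per kilobase in set A, at 423, 585 and 449 in WT, and Slc17a6 (VGLUT2, of thalamic neurons) averaged 2.87. Slc17a8 differed by 0.04 ± 0.23 between GCas9 and Cas9 of set B, and Slc17a6 had a mean of 2.11 there. The complexins Cplx1 and Cplx2 averaged 5039 and 8379 per kilobase in set A against 19.3 for Cplx3, and differed by -0.02 ± 0.11 and 0.12 ± 0.10 in GCas9 minus Cas9 of set B. Emx2 averaged 55.5 per kilobase in set A against 3.72 for Emx1, and differed by 0.17 ± 0.22 in GCas9 minus Cas9 of set B. Of the 20 relatives, 13 passed the filter in set A and 11 in set B, limma called 0, and the median difference in GCas9 minus Cas9 of set B was -0.01 (5 higher, 6 lower). Zinc transporters other than Slc30a3 that passed in both sets were Slc30a1, Slc30a4, Slc30a5, Slc30a6, Slc30a7, Slc30a9 and Slc30a10, at 61.9 (Slc30a7) to 257 (Slc30a9) per kilobase in set A. Tbx21, a T-box relative of Tbr1 known from T cells, passed in set A alone, at 0, 0 and 0 in WT, 9.36, 1.97 and 12.1 in Cas9 and 1.92, 0 and 75.8 in GCas9.

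Markers of other structures or cells near the striatum were set beside the 8 genes in GCas9 minus Cas9 of set B, and limma called 0 of each list. The median differences were 0.04 for spiny neuron genes (14 of 18 higher), 0.06 for interneuron genes (6 of 10), 0.16 for hippocampal genes (3 of 4), -0.08 for thalamic genes (2 of 6), 0.13 for basal forebrain genes (2 of 2), -0.07 for oligodendrocyte genes (2 of 10) and -0.82 for choroid plexus genes (0 of 7). The summed choroid plexus level was 259 to 558 in GCas9 and 266 to 11056 in Cas9 of set B, the upper value from Cas9 replicate 1. Leaving that library out, Slc17a7 differed by 2.76 and Neurod6 by 2.74, against 2.58 and 2.59 with it. Of the 8 genes Emx1 alone fell, from 0.83 to 0.46. The part of the choroid plexus content in these differences was not tested. The same difference had a median of -0.19 for neuroblast (1 of 6 higher), -0.01 for astrocyte (2 of 6), 0.01 for microglial (5 of 8) and 0.05 for pan-neuronal genes (7 of 8).

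The claustrum, a sheet of excitatory neurons between striatum and cortex, had 3 genes in the lists, of which 2 passed the filter in set B, with a median difference of 0.74 for GCas9 minus Cas9 (1 higher, 1 lower) and 0.76 for GCas9 minus GFP. Nr4a2, an orphan nuclear receptor that neuronal activity also induces, was at 8.42, 13.7, 14.3 and 9.10 in GFP, 13.6, 13.9, 13.0 and 13.5 in Cas9 and 53.7, 18.3, 18.5 and 162 in GCas9 of set B. All GCas9 libraries lay above all others, and replicate 4 was highest as for Slc17a7. Of all genes tested, 2.5% were higher in GCas9 with no overlap against GFP, and 1.23% against Cas9. Nr4a2 is not 1 of the 2 most abundant genes of its list, and its values were known when it was named. Nr4a2 differed by 1.82 ± 0.54 from GFP and by 1.56 ± 0.54 from Cas9 (log2 units, SE), neither past the limma threshold (adjusted p = 0.67 and 0.99). Gnb4, a G protein subunit and by far the most abundant of the 3, differed by -0.31 ± 0.17 and -0.08 ± 0.17, and the summed level of the list overlapped between groups (611 to 688 in GFP, 395 to 764 in Cas9 and 451 to 720.0 in GCas9). Ntng2, an axon guidance protein below the filter in set B, was at 2.10, 3.42, 15.2 and 6.37 in GFP, 13.6, 2.78, 3.54 and 0 in Cas9 and 5.37, 5.38, 8.03 and 11.9 in GCas9. In set A Nr4a2 was at 26.0, 62.1 and 89.0 in WT, 43.7, 36.5 and 33.4 in Cas9 and 34.5, 18.4 and 41.8 in GCas9. Its r with the mean deviation of the 8 genes was 0.86 in set A and 0.39 in set B, against -0.49 and 0.09 for Gnb4. In set A 4.62% of all genes tested had an r of at least 0.7. The part of claustrum content in the levels of the 8 genes was not tested.

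Of 11116 other genes with a mean of at least 50 in both sets, the 10 whose deviations were most like the mean deviation of the 8, by the smaller of the r in the 2 sets, were Camk2n2, Bnip2, Uqcrfs1, Kcnk3, Mettl5, Rcor3, Eif3h, Ncald, Gabarap and Bad. Camk2n2, an inhibitor of CaMKII, had r of 0.88 over 9 libraries in set A and 0.80 over 12 in set B (Spearman rho 0.77 and 0.80), and Ncald, a calcium sensor, had 0.89 and 0.70. Their own changes within groups were small. With group means removed, the highest library of set A exceeded the lowest by 1.36-fold for Camk2n2 and 1.29-fold for Ncald, and by 1.13-fold (Eif3h) to 2.10-fold (Bad) among the 10. Their within-group SD in set A was 0.07 (Eif3h) to 0.35 (Bad), against 1.00 or more for the 8 genes.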

How the data were processed

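RNA was measured in 21 libraries of mouse striatum, whose groups are those of the labels. Per the labels, RNA was column-purified, the cDNA came from a SMARTer kit and the libraries from a Nextera XT kit, a route that amplifies cDNA, so reads are not independent molecules. Per the submitters' processing notes, the build was GRCm38.p3 and the tools were R 3.3.3, STAR 2.5.2b, DESeq2, HTSeq and SAMtools, without roles. The values the authors deposited are a signal for each gene symbol, a normalized read count. In every column 100% of values were whole multiples of 1 step (within 0.001 reads), as reads divided by 1 factor per library give, and the reads and depths were taken from these steps.

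Differences were fitted on log2(normalized count + 1) with limma 3.58.1 (R 4.3.3, two-sided, mean trend), in each set with its 3 groups, for genes with a mean of at least 10, with Benjamini-Hochberg adjustment over all genes tested. Errors of differences are standard errors, and differences on this scale understate the change of low genes. The difference between the sets came from 1 fit over all libraries. The fits were also run on simulated counts drawn independently for each gene. The 8 genes moved together between libraries, so nothing is read from that run for them. Deviations of same-numbered libraries from their group means correlated at over 0.1 in every pair, a hint of pairing that the labels do not state, in GCas9 against WT (r of 0.11 to 0.28, 3 pairs) and in GCas9 against Cas9 of set B (0.12 to 0.33, 4 pairs), and not in every pair of the other 4 comparisons. Alternatives were edgeR 4.0.16 and DESeq2 1.42.0 on recovered reads, a pseudocount of 0.1, no filter, quantile normalization, a replicate block, 1 fit over all libraries and leaving out each library.

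The 8 genes and all lists were chosen with earlier results of these data known. Named are the 8, the 2 most abundant genes of each subgroup of the other cortical list, the family relatives that passed the filter, of other lists the 2 most abundant where shown, and the 10 most like genes. Cux2 and Nr4a2 were named outside these rules. Drd1 was matched as Drd1a. Likeness within the other cortical list is not reported here for set A.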

Additional observations from a re-analysis of the deposited data

Results flagged for a closer look

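Of 24 groups examined (8 genes in 3 groups of 4 libraries in set B), 1 held a library far from the other 3. Emx1 was at 8.60 in Cas9 replicate 4, on 7 reads, against 0, 0 and 1.18 in the other Cas9 libraries, a gap of 0.863 of the group's range, above the 95% critical value of Dixon's test. Chance flags about 1 group in 20.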

How the results depend on the processing

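Counts of genes called depended on the tool and on single libraries. DESeq2 called 116, 218 and 4 genes in set A (Cas9 against WT, GCas9 against WT, GCas9 against Cas9) and 14 and 41 in set B (Cas9 and GCas9 against GFP), where limma called 1, 1, 0, 0 and 0, and edgeR called 0 in Cas9 against WT. With 1 fit over all libraries the same 5 comparisons gave 11, 12, 1, 8 and 18. The difference between the sets had 1 call with a pseudocount of 0.1 and 1 without the filter, against 0. Leaving out each library gave 0 to 7 for Cas9 against WT, 0 to 2 for GCas9 against WT, 0 to 1 for GCas9 against Cas9 of set A, 0 to 2 for Cas9 against GFP, 0 to 9 for GCas9 against GFP and 0 to 1 for the difference between the sets. The cause was not tested. A replicate block gave 2, 2 and 5 calls in Cas9 against WT, GCas9 against WT and GCas9 against GFP, and 0 in the other 3, as without it. In the 4 comparisons whose libraries share only a number, the same-numbered r ran from -0.02 to 0.64 (set A) and from -0.13 to 0.46 (set B), and in none of them did every library correlate best with its own number.

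Of 756 alternative values of the differences of the 8 genes, 754 moved by less than 1 within-group SD. The exceptions were Emx1 with a pseudocount of 0.1 in set B (-2.31 for Cas9 minus GFP, 2.22 for GCas9 minus Cas9). Part of the alternatives could not move a difference of 2 group means, such as leaving out a library of the third group. The sign counts below include these too. The SD is each gene's own, 0.69 to 1.39, a wide bound. Slc17a7 in Cas9 minus WT went from -1.05 to -0.06 without WT replicate 3 and stayed within it. In GCas9 minus Cas9 of set B 0 of 133 alternatives changed the sign, and in GCas9 minus GFP 4 of 135 did, all of Emx1. In the other comparisons 10 of 119, 12 of 119, 15 of 119 (set A) and 16 of 131 (Cas9 minus GFP) did. The median pair r ran from 0.75 to 0.84 for set A and from 0.42 (without GCas9 replicate 3) to 0.60 in set B. Emx1, and Neurod2 in set B, were below the filter and were not run with every alternative. Low read numbers limit both.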

Other observations

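Genes named here were chosen after their values were seen. Bdnf, a growth factor of cortical neurons, Grm2, a presynaptic glutamate receptor, Prss12, a protease, and Cck, a neuropeptide, had r of 0.85, 0.84, 0.81 and 0.75 with the mean deviation of the 8 genes in set A. There 4.62% of the 15924 genes tested had an r of at least 0.7. In set B the same r were 0.18 for Bdnf, -0.22 for Grm2, 0.12 for Prss12 and 0.57 for Cck. In WT of set A Bdnf was at 0.962, 16.4 and 25.7 and Grm2 at 11.6, 37.1 and 97.9, with replicate 3 highest for both.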
